A study of Homo sapiens with 6 samples.

Results

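The urokinase and plasminogen activator system was examined in MDA-MB-231 cells, a human breast cancer line that lacks hormone receptors and amplified HER2, through 8 genes: the activators PLAU and PLAT, the receptor PLAUR, the inhibitors SERPINE2, SERPINB2 and SERPINB6, the plasminogen-binding annexin ANXA2 and the clearance receptor LRP1. They were followed on every probe set (several short probes against the same transcript, summarised as 1 signal) that the array's annotation assigned to 1 of these symbols alone. That gave 16 of the 54675 probe sets on the array, covering 6 of the 8 genes, out of 19775 genes that the annotation names alone on a probe set. SERPINB2 and SERPINB6 were matched to no probe set and are not analysed here. The comparison took 3 samples of cells stably carrying a MYOSIN10 shRNA, a hairpin RNA directed at the filopodial motor gene MYO10, and these were set against 3 samples of the same line stably carrying a scramble shRNA. Each sample was read on 1 array. All 6 samples therefore carried a hairpin construct and none was unmodified. The labels do not say whether 1 or several hairpins were used, whether the cells were clones or pools, or whether the numbers 1 to 3 stand for separate cultures, so the spread between samples may be technical.

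Plasmin, a protease that degrades fibrin and other matrix proteins, is made from plasminogen by urokinase (PLAU) and by tissue-type plasminogen activator (PLAT). Urokinase works at the cell surface while bound to its receptor PLAUR, and serpins such as SERPINE2 (protease nexin-1) stop it by forming covalent complexes that LRP1 takes into the cell. In MDA-MB-231 this system is known for its part in matrix invasion.

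Both activators were lower in the MYOSIN10 shRNA cells and passed the test, whereas no probe set of the receptor, the inhibitor, the annexin or LRP1 did. PLAU stood at 59.4% of the scramble level and PLAT at 65.0%. PLAT passed narrowly (limma adjusted p = 0.0434), and its call held under 9 of 18 alternative settings. The PLAUR probe set 214866_at just missed (0.0507), and the difference between PLAT and PLAUR was not tested. The 3 PLAUR probe sets stood at 72.2% to 87.9% and the bright SERPINE2 probe set at 80.9%, and none of these 4 passed the test. The 3 bright ANXA2 probe sets stood at 105% to 107% and did not pass. The genes were chosen on measured values of this same comparison, with earlier fold changes of these arrays in view, so their fold changes and adjusted p-values describe where they stood in a test of the whole array and are no independent evidence that the system was affected.

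Of the 16 probe sets, 13 were bright enough to be tested, meaning a signal at or above the 40th percentile in 3 or more of the 6 arrays. The 3 that did not were all from LRP1. Of the 13, 3 were called at a Benjamini-Hochberg adjusted p under 0.05 by limma, all lower, while 353 of the 33370 probe sets tested on the whole array, or 1.06%, were called (0.366% lower and 0.692% higher). Without overlap between the groups were 5 of the 13, all lower, beside 18.1% of all probe sets tested (8.94% lower and 9.18% higher). The median log2 fold change of the 13 was -0.19, beside -0.0020 over all probe sets tested. All values below are log2 of the signal after 16 was added, and each fold change has MYOSIN10 shRNA on top and scramble shRNA below.

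The arrays were alike, with correlations from 0.973 to 0.982 over the 15 pairs, but the arrays numbered 2 stood apart. On the first principal component scramble array 2 lay at 3.46, against 22.2 to 33.2 for the MYOSIN10 shRNA arrays and -43.2 and -40.0 for scramble arrays 1 and 3. On the second component both arrays numbered 2 lay apart from their groups, MYOSIN10 shRNA array 2 at -35.06 and scramble array 2 at -35.09, against 26.95 and 37.66 for the other MYOSIN10 shRNA arrays and 2.73 and 2.81 for the other scramble arrays. Member results that change without scramble array 2 or without both arrays numbered 2 are given both ways. The hairpin's target was lower on 1 of its 5 tested probe sets by the test. The brightest MYO10 probe set had 10.70, 11.39 and 10.64 in MYOSIN10 shRNA arrays 1, 2 and 3, against 11.57, 11.96 and 11.86 in scramble arrays 1, 2 and 3 (log2 fold change -0.88 ± 0.17 SE, limma adjusted p = 0.0319). That call ended without MYOSIN10 shRNA array 1 (adjusted p = 0.145) or 3 (0.151) or scramble array 1 (0.0759) or 3 (0.163). The other MYO10 probe sets did not pass, 3 with log2 fold changes of -0.74 (limma adjusted p = 0.0514), -0.58 (0.163) and -0.84 (0.126) and 1, 1554026_a_at, with 0.31 (0.647). Of 6 markers of mesenchymal-like breast lines, all passed the brightness filter, VIM, CD44, AXL, CAV1 and ZEB1 with a mean over 10. The luminal markers CDH1, FOXA1 and PGR did not pass it, whereas GATA3, ERBB2 and ESR1 each had at least 1 probe set that did. GATA3 had a mean of 10.18 on its brightest probe set, whereas the mesenchymal marker SPARC had 6.38. Of 3 markers each, 2 leukocyte, 1 endothelial and 2 fibroblast genes also passed, CD14 being the brightest at 7.55. Passing the filter therefore does not show that a gene was expressed.

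**Figure D1:**
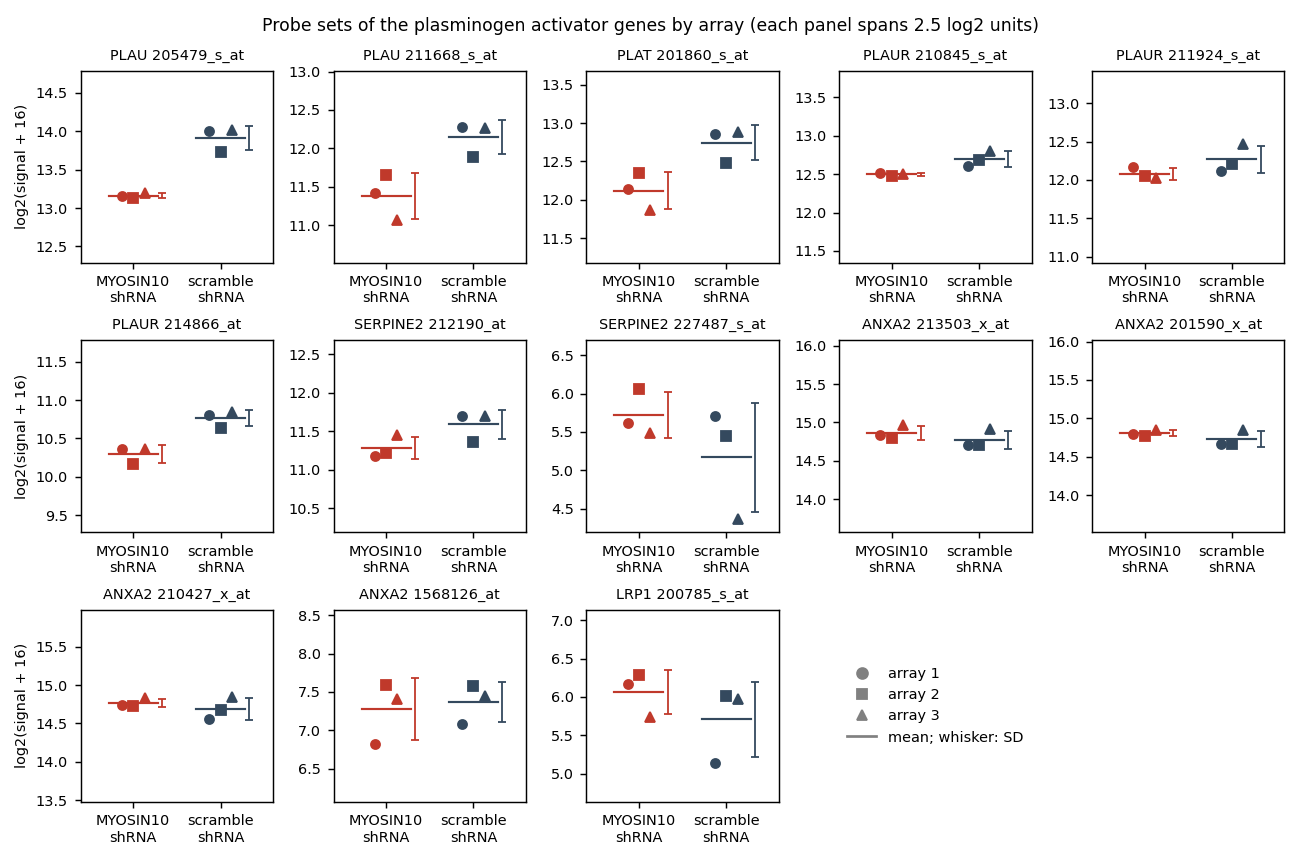
Log2(signal + 16) of the 13 tested probe sets in each array, with MYOSIN10 shRNA samples at left and scramble shRNA samples at right; marker shape gives the array number, the line the mean and the whisker the SD. Both PLAU panels, PLAT and the PLAUR probe sets 210845_s_at and 214866_at show no overlap between the groups, and scramble array 2 is the lowest scramble array for PLAU and PLAT.

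PLAU, the urokinase, showed the lowest adjusted p of the 6 genes measured. Its brighter probe set, 205479_s_at, had 13.16, 13.13 and 13.20 in MYOSIN10 shRNA arrays 1, 2 and 3, against 14.00, 13.73 and 14.01 in scramble arrays 1, 2 and 3. The knockdown arrays lay within a narrow band (13.16 ± 0.038) and every one was below every scramble array (13.92 ± 0.16; SD, n = 3 each). The log2 fold change was -0.75 ± 0.083 (SE; 95% interval -0.93 to -0.57; limma adjusted p = 0.00188), which ranked it at place 16 by p among all probe sets tested. It passed without any single array, with log2 fold changes from -0.84 to -0.70 and adjusted p-values from 7.85e-05 to 0.0196. Without scramble array 2 the log2 fold change was -0.84 (limma adjusted p = 7.85e-05), and without both arrays numbered 2 it was -0.83 (0.000131). In these bulk samples, less message in every cell and fewer cells with the message cannot be told apart.

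The second PLAU probe set, 211668_s_at, gave a difference of the same size with more spread. It had 11.42, 11.66 and 11.06 in MYOSIN10 shRNA arrays 1, 2 and 3, against 12.27, 11.89 and 12.27 in scramble arrays 1, 2 and 3. The nearest arrays of the groups, both numbered 2, were 11.66 and 11.89, so the groups were separate by a small margin. The log2 fold change was -0.77 ± 0.14 (SE; limma adjusted p = 0.0258). The call ended without MYOSIN10 shRNA array 1 (adjusted p = 0.0973) or 3 (0.106) or scramble array 1 (0.163) or 3 (0.153), with the log2 fold change between -0.90 and -0.61 over the 6 arrays left out in turn. It also ended with no filter on dim probe sets (0.0911) and with eBayes without a variance trend (0.297). Without scramble array 2 the log2 fold change was -0.89 (limma adjusted p = 0.00415), and without both arrays numbered 2 it was -1.03 (0.00041).

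PLAU has 2 start sites in RefSeq's promoter table (GRCh38.p14, chromosome 10, plus strand), and the 250 bases before each are shown because PLAU carries the difference described here. Capitals mark matches, on either strand, to a GC box (GGGCGG), an AP-1 site (TGAGTCA), an EGR site (GCGNGGGCG), an ETS site (CCGGAAG) or a TATA box (TATAAA), and such matches can overlap.
PLAU, chr10:73910360-73910609: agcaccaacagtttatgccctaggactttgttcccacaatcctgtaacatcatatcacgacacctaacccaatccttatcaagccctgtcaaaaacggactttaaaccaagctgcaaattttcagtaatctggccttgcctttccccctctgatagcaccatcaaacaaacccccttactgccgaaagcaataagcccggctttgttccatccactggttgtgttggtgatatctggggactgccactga
PLAU, chr10:73910882-73911131: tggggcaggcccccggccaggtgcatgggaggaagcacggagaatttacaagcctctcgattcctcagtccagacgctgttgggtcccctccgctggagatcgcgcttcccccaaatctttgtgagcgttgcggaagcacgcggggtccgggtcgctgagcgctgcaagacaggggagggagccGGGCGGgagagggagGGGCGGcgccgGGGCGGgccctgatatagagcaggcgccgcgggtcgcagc
The upstream window held none of the 5 motifs, and the downstream one held 3 GC boxes, at 66, 51 and 40 bases before the start. A GC box was found in 42.6% of the 35116 windows of the same length in the table. A match is a description of letters and does not show binding.

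PLAT, the tissue-type activator, was measured by the single probe set 201860_s_at. It had 12.15, 12.35 and 11.87 in MYOSIN10 shRNA arrays 1, 2 and 3, against 12.86, 12.48 and 12.89 in scramble arrays 1, 2 and 3. The groups did not overlap, but array 2 was the highest knockdown array and the lowest scramble array, and the gap between those arrays was the smallest. The log2 fold change was -0.62 ± 0.13 (SE; 95% interval -0.90 to -0.34; limma adjusted p = 0.0434), a 1.54-fold lower signal. The call was lost without MYOSIN10 shRNA array 1 (adjusted p = 0.142) or 3 (0.186) or scramble array 1 (0.218) or 3 (0.211). It was also lost with no filter on dim probe sets (0.125), with eBayes without a variance trend (0.331), and narrowly with a pseudocount of 1 (0.0512), with none (0.052) and with quantile normalization (0.0519). Without scramble array 2 the log2 fold change was -0.75 (limma adjusted p = 0.0042), and without both arrays numbered 2 it was -0.87 (0.000526).

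PLAUR, the urokinase receptor, had 3 probe sets, and all 3 were lower in the MYOSIN10 shRNA cells without passing. The dimmest, 214866_at, had 10.37, 10.16 and 10.36 in MYOSIN10 shRNA arrays 1, 2 and 3, against 10.81, 10.64 and 10.84 in scramble arrays 1, 2 and 3. The groups were clearly separate, and the log2 fold change of -0.47 ± 0.10 (SE; 95% interval -0.69 to -0.25) just missed the threshold (limma adjusted p = 0.0507). It passed under 6 of 17 alternatives, among them without scramble array 2 (-0.53, adjusted p = 0.0129) and without both arrays numbered 2 (-0.46, 0.0139). Filtering the dim probe sets at the 60th percentile was another (0.038). With any other single array left out it did not pass (limma adjusted p from 0.123 to 0.243). Nor did it pass with eBayes without a variance trend (0.287) or with no filter on dim probe sets (0.0923).

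The brighter PLAUR probe sets showed less. On 210845_s_at the signals were 12.52, 12.47 and 12.50 in MYOSIN10 shRNA arrays 1, 2 and 3, against 12.61, 12.69 and 12.80 in scramble arrays 1, 2 and 3. These groups did not overlap, yet the log2 fold change was -0.20 ± 0.076 (SE; 95% interval -0.37 to -0.036; limma adjusted p = 0.275). On 211924_s_at the signals were 12.17, 12.05 and 12.02 in MYOSIN10 shRNA arrays 1, 2 and 3, against 12.12, 12.21 and 12.47 in scramble arrays 1, 2 and 3. Here the groups overlapped, and the log2 fold change was -0.19 ± 0.096 (SE, limma adjusted p = 0.442). The difference between the fold changes of PLAU and PLAUR was not tested.

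The 250 bases before the PLAUR start (GRCh38.p14, chromosome 19, minus strand) and before the ANXA2 start (chromosome 15, minus strand) are shown beside those of PLAU, as the windows of the 6 measured genes in which an AP-1 match was found. Capitals mark the same 5 motifs.
PLAUR, chr19:43670170-43670419: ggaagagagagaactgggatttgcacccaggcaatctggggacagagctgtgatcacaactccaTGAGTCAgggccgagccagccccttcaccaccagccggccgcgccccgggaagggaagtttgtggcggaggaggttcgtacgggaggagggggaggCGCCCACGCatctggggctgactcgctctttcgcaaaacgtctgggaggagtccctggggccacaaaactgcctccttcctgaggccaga
ANXA2, chr15:60397987-60398236: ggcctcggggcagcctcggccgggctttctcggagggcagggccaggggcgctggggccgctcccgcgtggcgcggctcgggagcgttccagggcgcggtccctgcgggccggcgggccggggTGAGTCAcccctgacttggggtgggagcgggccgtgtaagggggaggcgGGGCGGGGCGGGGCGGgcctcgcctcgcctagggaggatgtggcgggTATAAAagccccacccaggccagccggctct
The PLAUR window held 1 AP-1 match at 186 bases and 1 EGR match at 90 bases before the start. The ANXA2 window held 1 AP-1 match at 127 bases, 3 GC boxes and 1 TATA box at 31 bases. An AP-1 match was found in 4.2% of all windows, an EGR match in 8.41% and a TATA box in 10.7%. No AP-1 match was found in either PLAU window. Nor was one found in the 2 windows of SERPINE2 or the 1 of LRP1, which held 1 or 2 GC boxes each. PLAT's window was not examined. Sites more than 250 bases before a start, or with other letters, were not searched for any gene. No order of the members by their fold changes can therefore be read from these matches.

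SERPINE2, which inhibits urokinase, PLAT, plasmin and thrombin, was lower on its bright probe set 212190_at without passing. The signals were 11.18, 11.22 and 11.45 in MYOSIN10 shRNA arrays 1, 2 and 3, against 11.70, 11.37 and 11.70 in scramble arrays 1, 2 and 3. Scramble array 2 lay inside the range of the knockdown arrays, and the other scramble arrays lay above it. The log2 fold change was -0.31 ± 0.11 (SE; 95% interval -0.55 to -0.064; limma adjusted p = 0.25). Without scramble array 2 it was -0.42 (adjusted p = 0.0345) and without both arrays numbered 2 it was -0.39 (0.0484), and with each of the other 5 arrays left out it did not pass. The other probe set, 227487_s_at, was dim and went the opposite way, with 5.48 to 6.06 in the MYOSIN10 shRNA arrays, against 4.37 to 5.70 in the scramble arrays (log2 fold change 0.55 ± 0.45 SE, limma adjusted p = 0.675).

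ANXA2, which at the cell surface binds plasminogen and PLAT together with S100A10, had no probe set that passed. Its probe set 213503_x_at had 14.83, 14.80 and 14.97 in MYOSIN10 shRNA arrays 1, 2 and 3, against 14.71, 14.71 and 14.91 in scramble arrays 1, 2 and 3. The groups overlapped, and the log2 fold change was 0.092 ± 0.075 (SE; 95% interval -0.072 to 0.26; limma adjusted p = 0.671). The probe sets 201590_x_at and 210427_x_at gave 0.079 and 0.077, and the dim 1568126_at gave -0.092. ANXA2 has near-identical processed pseudogenes, and the suffix _x_at marks probe sets that may bind other transcripts, so these values are uncertain in that respect. A further probe set, 201077_s_at, is shared in the annotation with SNU13 and was not counted (0.041).

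LRP1, the endocytic receptor that clears complexes of activator and serpin, was dim on all 4 of its probe sets. The 1 that passed the filter, 200785_s_at, had 6.17, 6.29 and 5.74 in MYOSIN10 shRNA arrays 1, 2 and 3, against 5.14, 6.01 and 5.98 in scramble arrays 1, 2 and 3. The groups overlapped, and the 95% interval of the log2 fold change, 0.36, ran from -0.42 to 1.13 (limma adjusted p = 0.739). That interval holds changes in either direction. The 3 untested probe sets ranged from 4.18 to 6.27 in the MYOSIN10 shRNA arrays and from 4.30 to 5.62 in the scramble arrays.

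**Figure D2:**
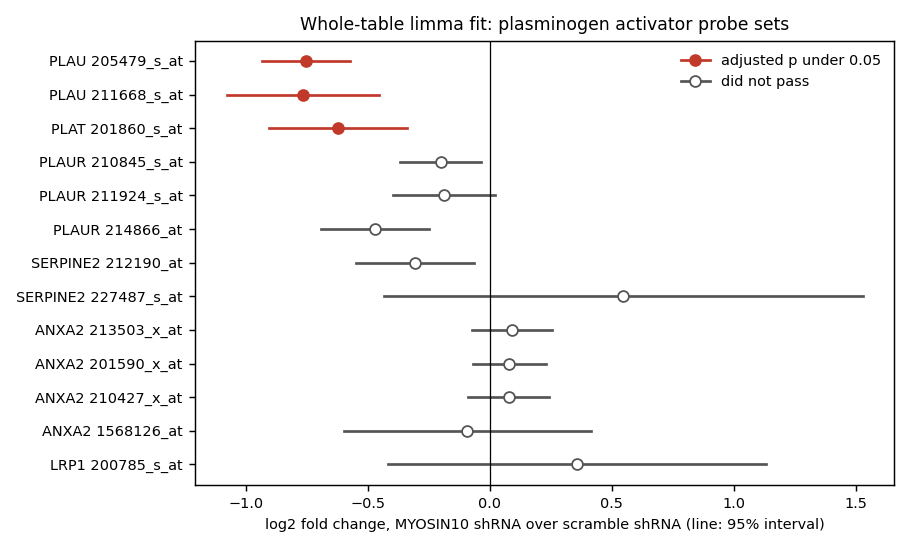
Log2 fold change, MYOSIN10 shRNA over scramble shRNA, of the 13 tested probe sets with its 95% interval from the whole-array limma fit. Filled red points passed an adjusted p under 0.05 (both PLAU probe sets at -0.75 and -0.77 and PLAT at -0.62), while the 3 bright ANXA2 probe sets lie between 0.077 and 0.092.

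The activators, the receptor and the inhibitor shared a negative sign on their bright probe sets, and differences in size between genes were not tested. Within the groups, array 2 was often at an extreme. Array 2 was the lowest scramble array for both PLAU probe sets, for PLAT, for PLAUR 214866_at and for SERPINE2 212190_at, whereas scramble array 1 was the lowest for the other 2 PLAUR probe sets. Leaving out scramble array 2 made the log2 fold changes of those 5 probe sets more negative, at -0.84, -0.89, -0.75, -0.53 and -0.42. Among the knockdown arrays, array 2 was the highest for PLAU 211668_s_at, for PLAT and for the target MYO10, and the lowest for PLAU 205479_s_at and for PLAUR 210845_s_at and 214866_at.

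**Figure D3:**
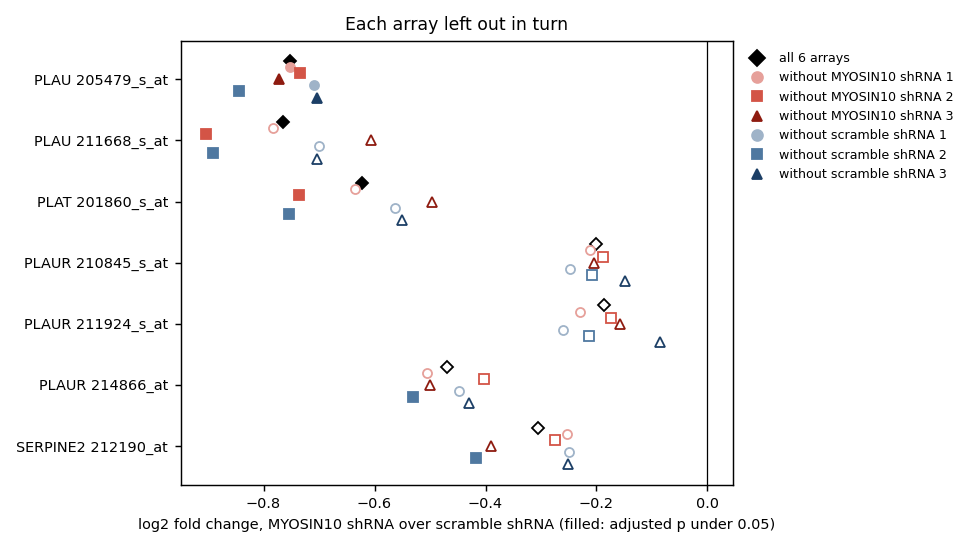
Log2 fold change of 7 probe sets with all 6 arrays (diamonds) and with each array left out in turn; filled symbols have a limma adjusted p under 0.05. PLAU 205479_s_at is filled in every case, from -0.84 to -0.70, while PLAU 211668_s_at and PLAT are filled only with all arrays or without an array numbered 2.

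The probe sets whose profile over the 6 arrays was most like that of PLAU 205479_s_at were sought among 14867 with 1 gene symbol and a mean at or above the median. The closest 5 genes were ING3, a subunit of a histone acetyltransferase complex (Pearson r = 0.9996), the TNF family cytokine TNFSF15 (0.9993), the kinase NLK (0.998), PNRC2, a nuclear receptor coactivator (0.997), and TIMM17B, a subunit of the mitochondrial import channel (0.995). Their log2 fold changes were -0.61 for ING3, -1.21 for TNFSF15, -0.67 for NLK, -0.35 for PNRC2 and -0.42 for TIMM17B. The 6 points fall into the same 2 groups for every gene, so a high r mostly reflects the difference between the groups and where scramble array 2 lay. Of the other members, PLAUR 214866_at came nearest, at r = 0.974 and place 81, then PLAT at 0.891 and place 707. ANXA2 213503_x_at stood at -0.34.

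Genes around the activators were taken from 6 lists of general knowledge. Of 88 genes listed, 70 had a tested probe set, and of their 151 tested probe sets 2 were called higher and 1 lower (1.99%, beside 1.06% of the whole array), with 33 (21.9%, beside 13.2% of the whole array) at an unadjusted p under 0.05. The median log2 fold change of the 151 was 0.066. No list probe set was called by limma without MYOSIN10 shRNA array 1 (29 at an unadjusted p under 0.05) or 3 (29) or scramble array 1 (22) or 3 (30), and 17 were called without scramble array 2.

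Among proteases known to activate pro-urokinase or to work beside plasmin, cathepsin B, CTSB, was called lower on 1 probe set. Its probe set 213275_x_at had 11.41, 11.51 and 11.12 in MYOSIN10 shRNA arrays 1, 2 and 3, against 12.01, 11.90 and 12.01 in scramble arrays 1, 2 and 3. The groups did not overlap, and the log2 fold change was -0.63 ± 0.10 (SE, limma adjusted p = 0.0126). None of the other 4 tested CTSB probe sets passed. The brightest of them gave -0.14 (limma adjusted p = 0.586) and -0.20 (0.404), and dimmer ones gave -0.45 and -0.48. The called probe set has the suffix _x_at, so it may bind other transcripts. CTSB had the 1 call among 14 tested probe sets of the list, which also held the protease inhibitors SPINT1 and SPINT2. Of these 14, 5 (35.7%, beside 13.2% of the whole array) had an unadjusted p under 0.05.

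Among other serpins, SERPINB1, an inhibitor of neutrophil elastase, was higher. Its probe set 213572_s_at had 11.03, 10.89 and 10.98 in MYOSIN10 shRNA arrays 1, 2 and 3, against 10.57, 10.50 and 10.34 in scramble arrays 1, 2 and 3, a log2 fold change of 0.50 ± 0.096 (SE, limma adjusted p = 0.0297). The groups did not overlap. The other tested SERPINB1 probe sets gave 0.46 (adjusted p = 0.0538) and 0.18 (0.618). It was the 1 call among 23 tested probe sets of the list, whose median was 0.13, with 15 above 0 and 8 below.

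In the list of ETS, AP-1 and NF-kB factors and SP1, known to act on the urokinase promoter, the AP-1 subunit FOSL2 rose. Its probe set 225262_at had 11.63, 11.54 and 11.67 in MYOSIN10 shRNA arrays 1, 2 and 3, against 11.02, 11.16 and 11.10 in scramble arrays 1, 2 and 3 (log2 fold change 0.52 ± 0.085 SE, limma adjusted p = 0.0119). The groups did not overlap. The other 4 tested FOSL2 probe sets, which did not pass, gave 0.31, 0.76, 0.91 and 0.47. The 40 tested probe sets in the list, SP1 included, came from 16 genes, so genes with several probe sets count more than once. Of the 40, 32 were above 0. The median was 0.19, beside -0.0020 over all probe sets tested, and FOSL2 was the single call. An unadjusted p under 0.05 was found for 9 of the 40 (22.5%, beside 13.2% of the whole array).

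The remaining 3 lists held 0 calls by limma. Of the 16 tested probe sets of plasminogen and its other binding proteins, 1 (6.25%, beside 13.2% of the whole array) had an unadjusted p under 0.05, and the median was 0.0021. HMGB1 had that probe set, at 0.39 (limma adjusted p = 0.163), while its 4 brighter probe sets gave 0.079, 0.19, -0.024 and 0.079. ANXA1 stood at -0.092 on its bright probe set (0.654) and at -0.35 on a dim one (0.578). In the endocytic and LDL-receptor family, 8 of 25 (32%, beside 13.2% of the whole array) had an unadjusted p under 0.05. LRP10 stood at 0.40 on its brightest probe set (limma adjusted p = 0.0749) and at 0.29 and -0.11 on the others. The sorting receptor SORL1 stood at -0.86 (0.164), -0.73 and 0.014. The list of cell-surface partners of the urokinase receptor also held its relatives CD59, LY6D, LY6E and LYPD3. In this list 4 of 33 tested probe sets (12.1%, beside 13.2% of the whole array) had an unadjusted p under 0.05. The 33 came from 12 genes. Of them, 25 were below 0, and the median was -0.088, beside -0.0020 over all probe sets tested. The hepatocyte growth factor receptor MET stood at -0.31 on its brightest probe set (limma adjusted p = 0.0981) and at -0.49, -0.019 and 0.083 on dimmer ones. The complement regulator CD59 stood at -0.011, -0.16, -0.038 and -0.17 on its 4 brighter probe sets and at -0.33 on the dimmest (0.286).

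**Figure D4:**
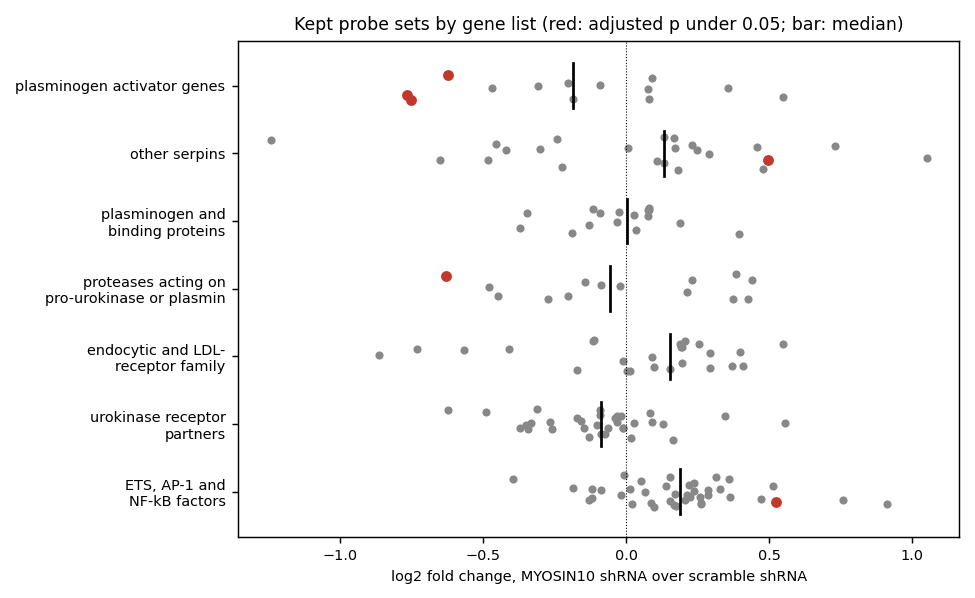
Log2 fold change of every tested probe set in the plasminogen activator genes (top) and in the 6 lists of genes around them; red points passed an adjusted p under 0.05 and the bar is the median. Of the 3 red points among the lists, CTSB lies at -0.63, SERPINB1 at 0.50 and FOSL2 at 0.52, and list medians run from -0.088 to 0.19.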

How the data were processed

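Messenger RNA was measured on 1-colour Affymetrix arrays, 1 per sample. Per the submitters' processing notes the authors used MAS5, which works array by array, with version and settings not given in the sources used here. A log2 scale was read from the deposited values: returned to the linear scale, their means with 2% trimmed at either end lay between 500.07 and 500.08 on the 6 arrays. An array has no read depth, so the 3 arrays per group limit the precision, and this scaling would hide a change of total RNA per cell.

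The values were made linear, 16 was added and log2 was taken, which understates changes of dim probe sets. The 33370 probe sets at or above the 40th percentile in 3 or more arrays were tested. Symbols came from the platform annotation, updated by gene number through RefSeq (GRCh38.p14) for 41043 of the 41097 probe sets with 1 symbol. The comparison used limma 3.58.1 under R 4.3.3 (eBayes with a variance trend, two-sided, Benjamini-Hochberg over all 33370). Of these steps only the limma fit was tested on simulated data. The simulated noise was independent between arrays, with no shift shared by the arrays numbered 2, so that feature was not covered. Promoter windows are RefSeq's, and figures used Python 3.11.15 and matplotlib 3.10.9. Members, lists and tests were chosen with earlier results of these data known. Besides the members and MYO10, the text names up to 4 called genes per list, or up to 2 with the smallest p, and the 5 genes most like PLAU. Alternatives changed the pseudocount, filter, scaling, variance model, features, arrays or replicate block.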

Additional observations from a re-analysis of the deposited data

How the results depend on the processing

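Of the 3 called member probe sets, PLAU 205479_s_at stayed called under 17 of 18 alternatives, PLAU 211668_s_at under 11 of 17 and PLAT under 9 of 18, and all kept their sign in each. The exception for PLAU 205479_s_at was eBayes without a variance trend (limma adjusted p = 0.16), where 0 probe sets were called on the whole array (3665 at an unadjusted p under 0.05), 0 among the members (4) and 0 in the 6 lists (25), and MYO10 stood at -0.88 (adjusted p = 0.309). Without a filter on dim probe sets 173 were called in all and 1 among the members, and MYO10 had an adjusted p of 0.106 at -0.88. With the filter at the 60th percentile the lists held 5 calls. Array weights gave 949 calls in all and 12 in the lists, and 1 probe set a gene gave 229. Without both arrays numbered 2 there were 1655 in all, 5 among the members and 19 in the lists. With each array left out in turn the calls ran from 59 to 1466 in all, from 1 to 5 among the members and from 0 to 17 in the lists, and MYO10 from -1.12 to -0.75. Samples with the same replicate number deviated from their group means with correlations of 0.033, 0.12 and 0.013, so the numbers were not taken to pair them. The arrays numbered 2 correlated best with each other and lay together on the second principal component, whereas arrays 1 and 3 correlated best with the other number. With the replicate number as a block 891 probe sets were called in all, 13 in the lists and 4 among the members, the fourth being PLAUR 214866_at (adjusted p = 0.015). The causes of these shifts were not tested. Dim probe sets, such as those of LRP1, allow no statement on small changes.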
